A study of Mus musculus with 8 samples.

Results

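Zfp600, Zfp981, Zfp982 and Zfp985 are 4 zinc finger genes of 1 cluster on distal chromosome 4 of the mouse. They were followed in retinas of aged mice through every probe whose accession on the array maps to one of them in the RefSeq gene table, which gave 8 of the 56605 probes and 4 of the 22911 named genes. Zfp600 had 4 probes, Zfp985 had 2, and Zfp981 and Zfp982 had 1 each. The 4 genes were selected on the genotype difference of their own signal on these arrays, so their genotype differences are given as a description, without a test. RNA of whole retina from mice aged 46 to 55 weeks was labelled with Cy3 and put on 8 one-color arrays. Of these, 4 carried samples labelled as homozygous Mrp4 knockout (Mrp4-null, on a C57BL/6J background) and 4 carried wild-type samples. The methods name 3 mice and do not say whether a sample pooled them, so p-values measure only the spread between these samples, which may be technical. The labels name no treatment. In whole tissue, fewer cells of a type and less RNA per cell cannot be told apart.

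C2H2 zinc finger proteins read DNA through a row of small zinc-binding modules. In the mouse, clusters such as the distal one of chromosome 4 carry many young, closely related copies whose products typically bear a KRAB domain. KRAB proteins recruit the corepressor TRIM28 and the histone methyltransferase SETDB1 and are best known for silencing endogenous retroviruses. Members of such clusters are so alike in sequence that a probe for one may also bind transcripts of another. The probe sequences were not used here, so how much signal such genes share is unknown.

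The gene table lists 84 genes between Tnfrsf8 and Mfn2, the genes taken as the ends of the cluster. Of these, 21 are protein-coding, 16 of them with a Zfp symbol, while 50 are pseudogenes and 6 are transcribed pseudogenes. Zfp600 and Zfp981 lie near each other, with 1 protein-coding gene between them. Zfp982 and Zfp985 lie farther along, with 5 protein-coding genes between Zfp981 and Zfp982 and 0 between Zfp982 and Zfp985. The relatedness of the genes can be read from their promoters, from 250 bases before to 50 bases after a start of transcription. RefSeq starts of GRCm38.p6 gave 2 windows for Zfp600, 3 for Zfp982 and 1 each for Zfp981 and Zfp985. For each gene, the window most like those of the other 3 genes is shown, since these are the stretches that members of opposite difference share. The capitals mark the longest run of bases found in all 4 windows.
Zfp600, chr4:146156577-146156876, + strand: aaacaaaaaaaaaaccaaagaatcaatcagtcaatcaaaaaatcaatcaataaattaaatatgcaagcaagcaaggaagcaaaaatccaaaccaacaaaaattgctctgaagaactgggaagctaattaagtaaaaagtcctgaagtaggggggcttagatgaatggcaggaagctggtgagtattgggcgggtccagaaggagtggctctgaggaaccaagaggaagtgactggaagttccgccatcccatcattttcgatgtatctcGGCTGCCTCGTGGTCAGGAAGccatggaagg
Zfp981, chr4:146514670-146514969, + strand: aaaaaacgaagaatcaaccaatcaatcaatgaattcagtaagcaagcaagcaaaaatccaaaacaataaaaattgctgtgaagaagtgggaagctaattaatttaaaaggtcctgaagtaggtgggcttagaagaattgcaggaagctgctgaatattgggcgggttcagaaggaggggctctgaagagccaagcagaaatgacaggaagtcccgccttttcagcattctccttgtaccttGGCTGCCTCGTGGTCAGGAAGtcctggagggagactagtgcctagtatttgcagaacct
Zfp982, chr4:147492167-147492466, + strand: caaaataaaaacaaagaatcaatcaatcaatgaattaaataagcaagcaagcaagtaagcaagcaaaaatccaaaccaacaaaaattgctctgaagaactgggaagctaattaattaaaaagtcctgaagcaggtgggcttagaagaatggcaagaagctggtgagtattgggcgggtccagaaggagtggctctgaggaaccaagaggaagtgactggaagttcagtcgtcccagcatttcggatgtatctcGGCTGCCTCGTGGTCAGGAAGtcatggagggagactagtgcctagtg
Zfp985, chr4:147553027-147553326, + strand: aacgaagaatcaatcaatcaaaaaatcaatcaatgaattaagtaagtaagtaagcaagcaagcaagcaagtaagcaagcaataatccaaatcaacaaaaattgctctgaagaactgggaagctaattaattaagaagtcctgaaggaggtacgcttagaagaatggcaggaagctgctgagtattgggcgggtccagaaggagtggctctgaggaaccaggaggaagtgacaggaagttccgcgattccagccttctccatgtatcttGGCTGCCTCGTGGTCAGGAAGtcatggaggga
In global alignments, these windows were between 71.1% identical (Zfp600 and Zfp981) and 82.8% identical (Zfp600 and Zfp982). Zfp982 and Zfp985, the neighbouring pair, were 82.6% identical. The shared run was GGCTGCCTCGTGGTCAGGAAG, of 21 bases. The run began at base 270 of the window of Zfp600, 242 of Zfp981, 254 of Zfp982 and 269 of Zfp985. The first 250 bases come before the start, so it lay past the start, or across it in Zfp981. Searched on both strands, the run occurred in 7 of the 32851 promoter windows of the table (0.0213%), 1 for each of 7 genes. Besides the 4 genes that defined it, these were Rex2, Zfp979 and Zfp980, all of the same cluster. The cluster has 21 genes with a window in that table, and the run was found in no window outside it. The other window of Zfp600 and the other 2 of Zfp982 were 45.3% to 52.4% identical to the windows of other member genes.

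Before the values, the labels were checked. Abcc4, the gene for MRP4, had a normalized log2 signal of 10.64 to 10.84 under the Mrp4-null label and of 6.54 to 7.13 on the wild-type arrays. The targeted gene was thus higher under the knockout label. Whether its probe lies in the deleted part is not given in the sources used here, and directions follow the labels as deposited. All 8 retina markers were well above background on each array. The mean log2 signal of 8 lens markers varied more, from 6.24 to 9.17 under the Mrp4-null label and from 7.82 to 10.45 in wild-type. Signal of Y-linked genes cleared the background on arrays 2, 3 and 4 of wild-type and on no other array. Xist, expressed from the inactive X chromosome of females, cleared it on all arrays but 3 and 4 of wild-type. Wild-type array 2 thus carried both, with Xist at 8.75 and the Y-linked Eif2s3y at 9.60. A single slide held all 8 arrays, a row for each genotype, so row and genotype cannot be told apart. The 75th percentile of the deposited signal was between 678.4 and 1082.

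The values below are log2 of the deposited signal after quantile normalization, and a difference is the mean of the arrays labelled Mrp4-null minus that of the wild-type arrays. All 8 probes were well above background on all 8 arrays. Their deposited signals lay between 45.88 and 1204 intensity units. Across the 8 probes the differences ran from -1.78 to 1.26, with 5 above 0 and 3 below. The median of the absolute difference was 0.94, against 0.083 over all 37085 retained probes. Calls needed an adjusted p under 0.05 from limma and a 1.5-fold or larger change. They covered 6 of the 8 probes, where 0.545% of all retained probes were called. Of the 6, 4 were higher under the Mrp4-null label and 2 lower, where 0.256% and 0.289% of all retained probes were. The fold alone was reached by the same 6, and by 1.88% of all. Since this contrast chose the genes, nothing is read from these counts. Genotypes were fully separated for 6 probes, against 4.79% of all retained probes, and for 6 in the deposited signal before normalization. Nearest to the fold threshold were a Zfp600 probe at 1.90-fold on the inside and a Zfp985 probe at 1.49-fold on the outside.

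**Figure D1:**
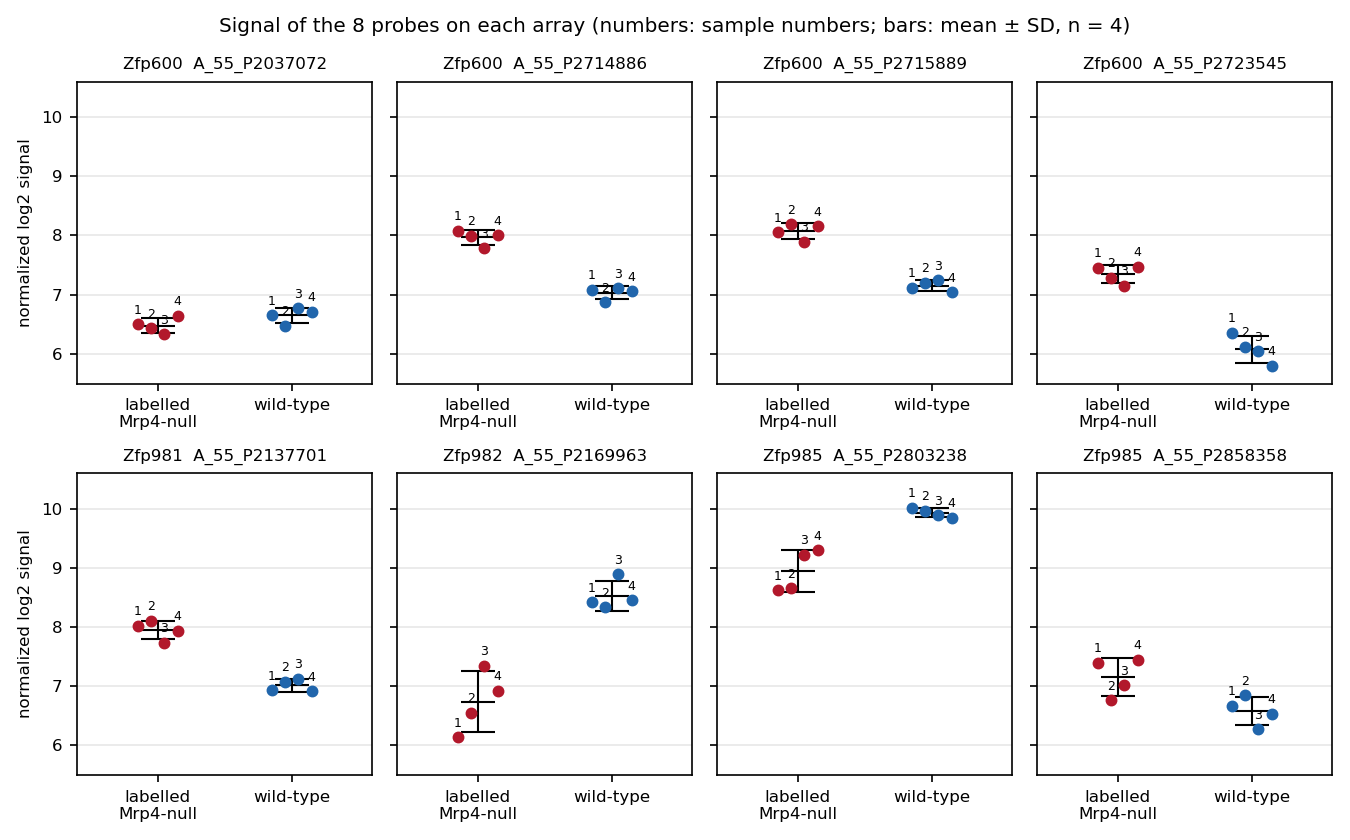
Normalized log2 signal of each of the 8 probes (panels) on the 4 arrays labelled Mrp4-null (red) and the 4 wild-type arrays (blue). Numbers beside the points are sample numbers, and bars give the mean ± SD (n = 4). A total of 3 probes of Zfp600 and that of Zfp981 sit higher on the arrays labelled Mrp4-null, the Zfp982 probe and 1 of Zfp985 sit lower, and the groups overlap for A_55_P2037072 and A_55_P2858358.

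Zfp600 is a zinc finger gene of the cluster and was the one with the most probes. The probe A_55_P2723545 was at 7.45, 7.29, 7.15 and 7.47 on arrays 1 to 4 labelled Mrp4-null and at 6.36, 6.12, 6.04 and 5.80 on wild-type arrays 1 to 4. Every array labelled Mrp4-null was above every wild-type array, with a gap of 0.80 between the nearest 2. The means were 7.34 ± 0.15 (SD, n = 4) and 6.08 ± 0.23 (SD, n = 4), which is a difference of 1.26 (standard error 0.14), or 2.40-fold. With the normexp background correction this difference was 0.76. The probe A_55_P2714886 was at 8.08, 8.00, 7.79 and 8.00 under the Mrp4-null label and at 7.08, 6.87, 7.11 and 7.06 in wild-type. Its groups did not overlap, and its difference was 0.94 (standard error 0.083). The probe A_55_P2715889 was at 8.05, 8.19, 7.89 and 8.16 against 7.12, 7.21, 7.24 and 7.04, again without overlap. Its difference was 0.92 (standard error 0.080). The fourth probe, A_55_P2037072, went the other way by a small amount. It was at 6.50, 6.43, 6.34 and 6.64 under the Mrp4-null label and at 6.66, 6.48, 6.77 and 6.71 in wild-type, values that overlapped. Its difference was -0.17 (standard error 0.091), so the 4 probes of Zfp600 spanned 1.44 on the log2 scale. All 4 carry the same transcript accession on the array.

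Zfp981 was measured by 1 probe, A_55_P2137701. It was at 8.02, 8.10, 7.74 and 7.94 under the Mrp4-null label and at 6.93, 7.08, 7.13 and 6.91 on the wild-type arrays. The groups were apart by 0.61 at the nearest. The means were 7.95 ± 0.16 (SD, n = 4) and 7.01 ± 0.11 (SD, n = 4), with a difference of 0.94 (standard error 0.095). The Zfp600 probes A_55_P2714886 and A_55_P2715889, at 0.94 and 0.92, had much the same difference.

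Zfp982 showed the largest difference of the 8 probes. Its probe, A_55_P2169963, was at 6.14, 6.56, 7.35 and 6.92 under the Mrp4-null label and at 8.42, 8.34, 8.89 and 8.45 on the wild-type arrays. Every array labelled Mrp4-null was below every wild-type array, with a gap of 0.99. The means were 6.74 ± 0.52 (SD, n = 4) and 8.52 ± 0.25 (SD, n = 4), a difference of -1.78 (standard error 0.29), or 3.44-fold lower. The spread under the Mrp4-null label was the widest among the 8 probes, from 6.14 on the first array to 7.35 on the third.

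Zfp985 gave opposite signs with its 2 probes, which carry the same transcript accession. The probe A_55_P2803238, with the highest signal of the 8, was at 8.62, 8.65, 9.22 and 9.29 under the Mrp4-null label and at 10.02, 9.96, 9.88 and 9.85 on the wild-type arrays. The groups did not overlap, and the difference was -0.98 (standard error 0.18). The probe A_55_P2858358 was at 7.40, 6.76, 7.02 and 7.44 against 6.67, 6.85, 6.27 and 6.53. Here the second array labelled Mrp4-null lay below the second wild-type array, so the groups overlapped. The difference was 0.57 (standard error 0.20), and the 2 probes were 1.55 apart. On arrays 1 and 2 labelled Mrp4-null, where Zfp982 and the brighter Zfp985 probe were lowest, the mean of the 8 lens markers was 6.72 and 6.24, against 7.96 and 9.17 on arrays 3 and 4. In wild-type the order was another: Zfp982 was highest, at 8.89, on array 3 with the lowest lens mean of 7.82, and lowest, at 8.34, on array 2 with the highest of 10.45. Array 4 labelled Mrp4-null had a higher lens mean than wild-type arrays 3 and 4 (7.82 and 8.75), with Zfp982 at 6.92. The part of lens RNA in these values was not tested.

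Whether probes rise and fall together within a genotype is a measure that the genotype difference does not enter. For this, each genotype's mean was subtracted and the deviations of 2 probes were correlated over the 8 arrays, as a description without a test. Among the 6 pairs of Zfp600 probes, Pearson's r was between 0.19 and 0.79. The highest value joined A_55_P2714886 with A_55_P2037072, the probe of opposite sign. The 2 probes of Zfp985 had r = 0.30. Across genes, the Zfp981 probe and A_55_P2715889 of Zfp600 had r = 0.89, above each pair of probes of the same gene. Zfp982 and the brighter Zfp985 probe had r = 0.72. Zfp981 and that Zfp985 probe had r = -0.64. Of the 11 pairs of probes of different genes whose differences had opposite signs, 8 had r below 0, and r ran from -0.64 to 0.18. The 4 such pairs within a gene had r between 0.19 and 0.79. Pairs of different genes with the same sign had r between -0.16 and 0.89. Sorting by sign uses the genotype difference, and no value over all pairs of probes was computed for comparison. All points share the array, its depth of signal and its normalization.

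**Figure D2:**
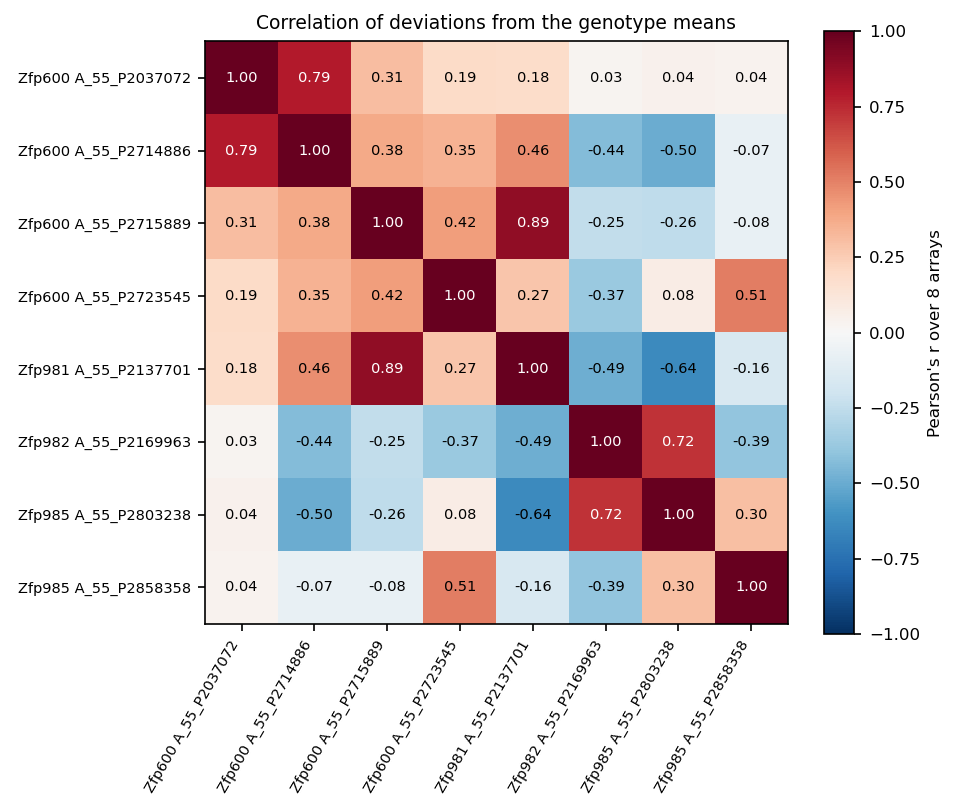
Pearson's r between the deviations of each pair of the 8 probes from their genotype means, over 8 arrays, with red for positive and blue for negative values. The highest value off the diagonal, 0.89, joins a probe of Zfp600 with that of Zfp981, and the lowest, -0.64, joins the Zfp981 probe with the brighter Zfp985 probe.

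The other genes of the cluster were taken from the gene table. Of the 80 genes between the 2 ends apart from the 4, 14 were on the array and 11 had a retained probe, with 13 probes in all. Limma called 1 of these 11 genes, Rex2, where 0.652% of all named genes had a called probe. Rex2 was at 8.06, 7.98, 7.72 and 7.87 under the Mrp4-null label and at 7.09, 7.05, 7.08 and 7.01 on the wild-type arrays. It did not overlap between the groups, and it rose by 0.85 on the log2 scale (standard error 0.091, adjusted p = 0.00420 from limma). The call of Rex2 was lost with the replicate number as a block, with the normexp correction and under the local pooled error (LPE) test. Against wild-type array 1 alone, the one without Y-linked signal, its difference was 0.82. Rex2 carries the run shared by the windows of the 4 genes, as does Zfp979, which was at -0.85 and did not pass (adjusted p = 0.185 from limma). Zfp933 was at 8.17, 8.74, 9.52 and 8.95 against 10.41, 10.04, 10.42 and 10.10 by its brighter probe, A_52_P88793, without overlap. Its difference was -1.40 (standard error 0.25), which did not pass (adjusted p = 0.0662 from limma). Its other probe was at -0.56 (adjusted p = 0.871 from limma). Besides Rex2 and Zfp933, the genes with an unadjusted p under 0.05 were Zfp987 at -0.89, Zfp979, the pseudogene Znf41-ps at -0.71, Miip at -0.50 and Zfp984 at -0.29, and none of them passed the adjusted test. The remaining probes included Zfp534 at -0.04 and Fv1, a retroviral restriction gene, at 0.23. Of the 13 probes, 11 were lower, 2 were higher and 7 did not overlap between the genotypes, against 4.79% of all retained probes. An unadjusted p under 0.05 was found for 7, against 6.46% of all. Represented by its brightest probe, the list had a median difference of -0.29, against -0.01 for all retained probes. Zfp987, Zfp979, Znf41-ps, Miip, Zfp984, Zfp534 and Fv1 were named after their values had been seen.

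Outside the cluster, the 20 nearest genes with a retained probe on the side of Tnfrsf8 had 0 called, with no probe of 28 passing. Without overlap there, by 1 probe each, were among others Dhrs3 at 0.46 and Efhd2 at -0.56 (adjusted p = 0.0581 and 0.231 from limma). Both were named after their values had been seen. Over the 2 sides, 18 of 68 probes did not overlap between the genotypes, against 4.79% of all retained probes. An unadjusted p under 0.05 from limma was found for 21 of them, against 6.46% of all. On the side of Mfn2, 3 of 20 were called, where 0.652% of all named genes were. Masp2, a protease of the lectin pathway of complement, was higher by 3 probes, at 2.02, 2.08 and 2.67 (adjusted p = 0.00366, 0.000365 and 0.000175 from limma), which were well above background on 3, 4 and 2 of the 4 wild-type arrays. The probes at 2.02 and 2.67 were retained through the arrays labelled Mrp4-null, and the probe at 2.08 was measured above background on all arrays. Nppb, the gene for brain natriuretic peptide, was lower at -2.37 (adjusted p = 0.0412 from limma). Under the Mrp4-null label, this probe cleared the background on 2 of 4 arrays, and it was retained through the wild-type arrays. Its call was lost with the stricter filter, which left Masp2 and Fbxo44, and without a filter on dim probes, which left Masp2. The other Nppb probe was at -1.04 (adjusted p = 0.153 from limma). Fbxo44, a gene for an F-box protein, was lower at -0.65 by 1 probe (adjusted p = 0.0293 from limma), while its other probes, at -0.58 and -0.56, did not pass (adjusted p = 0.467 and 0.310 from limma). In fits that each left out 1 array, between 1 and 3 of the 40 genes were called, and 1 was called without array 1 labelled Mrp4-null or without any one of the 4 wild-type arrays. Masp2 was called in each of these fits, and the calls lost were those of Nppb and Fbxo44. A call was gained without array 3 labelled Mrp4-null, that of Efhd2 on the side of Tnfrsf8, beside Fbxo44 and Masp2.

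**Figure D3:**
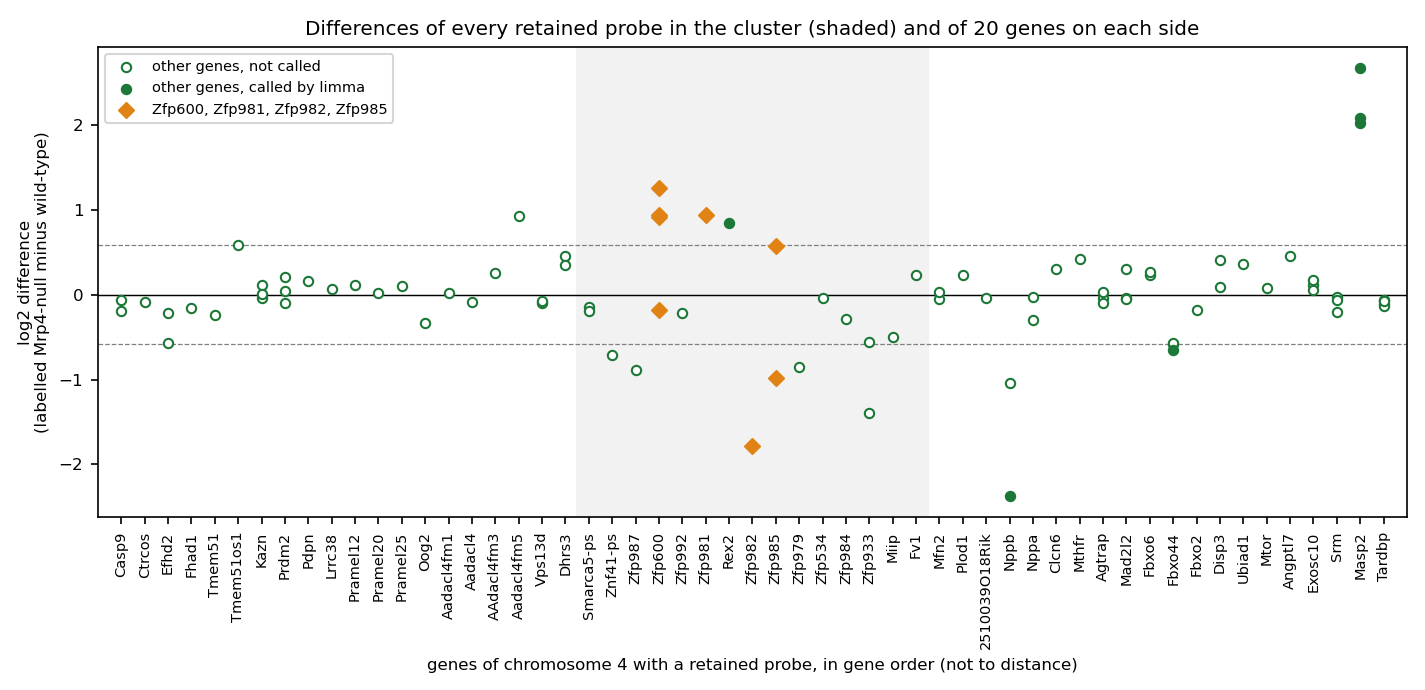
Log2 difference (labelled Mrp4-null minus wild-type) of every retained probe of the cluster (shaded) and of 20 genes on each side, in gene order along chromosome 4. Orange diamonds are the probes of Zfp600, Zfp981, Zfp982 and Zfp985, green points are other genes, filled where limma called them, and the dashed lines mark a 1.5-fold change. Within the shaded part both signs occur side by side, and the called flanking genes, Nppb, Fbxo44 and Masp2, all lie on the right.

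The proteins through which KRAB zinc finger genes repress were followed by a list of 37 genes, all with a retained probe. The list also holds Zfp57 and Zfp809, which are KRAB zinc finger genes themselves and count among the Zfp genes below too. Of the 37 genes, 0 were called by limma, 0 of their 66 probes had an unadjusted p under 0.05, and the LPE test called 0 as well. Over all features, 0.652% of named genes were called and 6.46% of probes had an unadjusted p under 0.05. Their differences were between -0.22 and 0.40, with a median of 0.01. Trim28 was at 13.65 ± 0.09 and 13.62 ± 0.14 (SD, n = 4 each) by its brighter probe, a difference of 0.03. Setdb1 was at 8.97 ± 0.30 and 8.94 ± 0.12 (SD, n = 4 each), a difference of 0.04. Among 354 retained genes with a Zfp symbol outside the cluster, limma called 1 (0.282%), lower, against 0.652% of all named genes. This was Zfp330 on chromosome 8, at -0.95 (adjusted p = 0.000648 from limma). The next in absolute difference, Zfp791 on chromosome 8 at -0.74 and Zfp46 on chromosome 4 at 0.72, did not pass (adjusted p = 0.185 and 0.0795 from limma).

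The genes most like each of the 4 in level over the 8 arrays were found by Pearson's r of normalized log2 signal, taking each of the 4 by its brightest probe and any other gene by its most alike one. The 4 genes themselves were left out of this search. Among them, Zfp600 and Zfp981 were closest, with r = 0.99 between A_55_P2715889 and the Zfp981 probe. Outside the 4, nearest to Zfp981 was Rex2 (r = 0.99), followed by Rnaseh2a on chromosome 8 and Gm36157 on chromosome 4. Outside the 4, Zfp600 was nearest to N4bp1 on chromosome 8, Rex2 and E2f2 on chromosome 4, with r between 0.980 and 0.986. For Zfp982 they were Mgl2 on chromosome 11 (r = 0.99), Zfp933 (r = 0.98) and Rasa2 on chromosome 9 (r = 0.97). For Zfp985 they were Ddit4 on chromosome 10, Pnrc2 on chromosome 4 and Bche on chromosome 3, with r between 0.976 and 0.986. Such values include the genotype difference. With the genotype means removed, the nearest were Kdm7a, Sox10 and Prkag3 for Zfp600 (r = 0.97 to 0.98), Prl3d1, Elavl4 and Tmx2 for Zfp981 (r = 0.97 to 0.99), Emd, Dlc1 and Rasa2 for Zfp982 (r = 0.95 to 0.96) and Thsd7a, H2-Ob and Arglu1 for Zfp985 (r = 0.95). Rasa2 was the one gene on both lists of a member. On the same measure, Rex2 had r = 0.78 with Zfp981 and -0.82 with Zfp982, and the Zfp933 probes A_52_P88793 and A_55_P2733695 had r = 0.93 and 0.43 with Zfp982.

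The differences were recomputed under 17 other settings for each probe. All 136 values kept their sign. The normexp background correction, with its offset of 50, made the difference of every probe smaller in size. It moved 4 of them by more than the spread between arrays, bringing the probes of Zfp600 and Zfp981 that were higher to between 0.70 and 0.76. Zfp982 went from -1.78 to -1.33, which lay within its wider spread. Compared with the wild-type array that had no Y-linked signal alone, the differences kept their sign as well. This setting was chosen after the data had been seen, and with 1 array and genes selected on this contrast it is a description only.

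**Figure D4:**
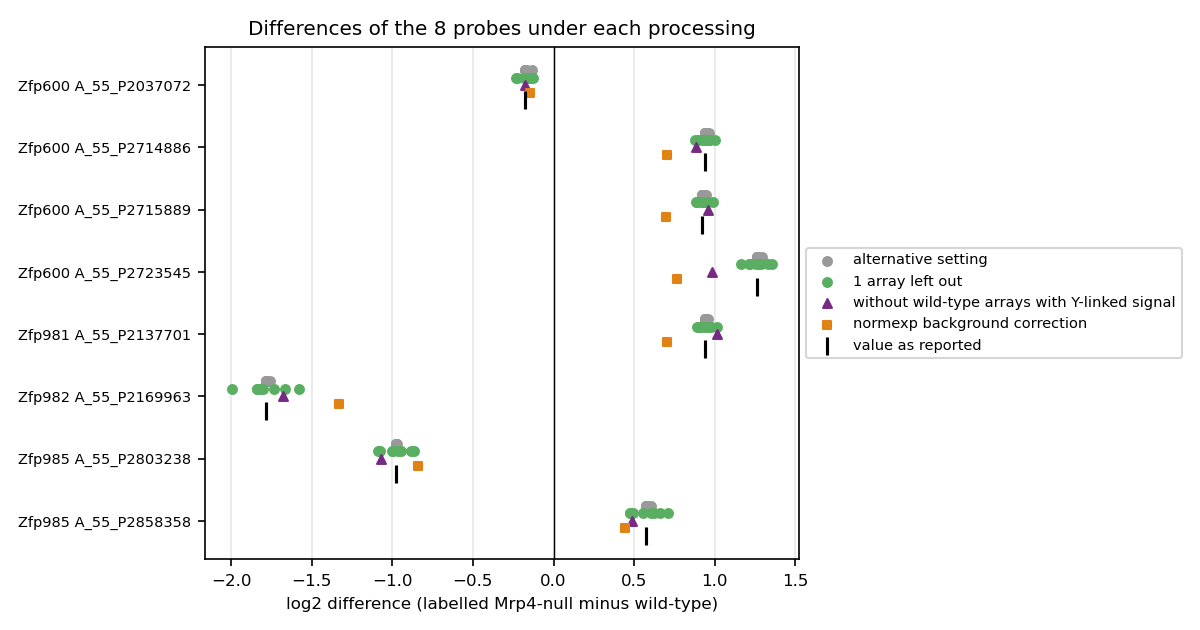
Log2 difference (labelled Mrp4-null minus wild-type) of each of the 8 probes as reported (black bar), under alternative settings (grey), with 1 array left out (green), without the wild-type arrays with Y-linked signal (purple) and with the normexp background correction (orange). No value crosses 0, and the orange squares of the higher Zfp600 probes and of Zfp981 lie between 0.70 and 0.76.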

How the data were processed

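Retinal RNA was measured on 8 Agilent SurePrint G3 mouse arrays, 4 per genotype. The authors deposited the scanner output of Agilent Feature Extraction 11.0.1.1, whose processed signal intensity is not normalized between arrays. The deposited series matrix holds the same intensity averaged per probe. The flags per spot came from the deposited files as well. Controls and outlier spots (78 to 143 per array) were left out, and log2 intensity was averaged per probe. No spot was saturated. Probes were retained (37085 of 56605) if 1 genotype had 3 or more measured arrays, each well above background, and the other had 2 or more measured arrays. They were quantile normalized, as in the methods. Accessions named 32994 probes (58.3%) through the RefSeq gene table of GRCm38.p6. The array design carries an older build, so that table served for names and gene order, and the coordinates given are those of its promoter windows alone. Biopython 1.88 aligned the windows.

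Genotypes were compared in R 4.3.3 with limma 3.58.1 (lmFit, eBayes, statmod 1.5.0, data.table in version 1.17.8), genotype as the only term and Benjamini-Hochberg adjustment over all retained probes. A call took an adjusted p under 0.05 and a 1.5-fold or larger change. The LPE test of the methods was rewritten, with bins of 0.01 of the values and a spline of 10 degrees of freedom. Both were tested on simulated data. The number of arrays limits the precision. The members and lists were chosen with earlier results of these data known. The named genes were the 4 genes, Abcc4, called neighbours and flanking genes, Trim28 and Setdb1, the 3 zinc finger genes elsewhere with the largest absolute difference, since none on chromosome 4 was called, and the 3 genes most alike to each member. Alternatives were a 75th percentile shift, cyclic loess, normexp (on median signals, as mean signals were not used here, with an offset of 50), other filters, outlier spots kept, the deposited table, the replicate number as a block, other variance models, the LPE test, adjusted p alone, each array left out, and for the neighbours the brightest probe or zinc finger symbols alone. Lists of pigment epithelium, muscle and blood markers were read per array without a test. Their mean log2 signal was 8.31 to 8.68, 4.30 to 4.50 and 10.13 to 11.12 under the Mrp4-null label, and 8.23 to 8.74, 4.35 to 4.86 and 10.09 to 11.08 in wild-type.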

Additional observations from a re-analysis of the deposited data

How the results depend on the processing

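All 136 recomputed differences of the 8 probes kept their sign, and 131 moved by less than the spread between arrays. With the normexp correction, the Zfp600 probes A_55_P2714886, A_55_P2715889 and A_55_P2723545 were at 0.71, 0.70 and 0.76, and the Zfp981 probe at 0.71. Without the wild-type arrays with Y-linked signal, A_55_P2723545 was at 0.98. That left 1 wild-type array, assumed to vary like the other group, and 0 neighbours were called with Rex2 still at 0.82, so the lost call says nothing about those arrays. The count of 202 called probes fell to 71 with the replicate number as a block and was between 117 and 188 with 1 array left out, with 131, 129 and 117 without wild-type array 2, 3 and 4. The block left the differences as they were, called 0 neighbours in place of Rex2 and 1 flanking gene. The same-numbered arrays did not deviate together in every pair (r = -0.29, -0.69, 0.03 and 0.41). These values cannot decide whether such arrays shared a step of processing, since deviations are tied to each other within a genotype. The labels give only the number. Rex2 gave way to Zfp933 with normexp and under the LPE test. With an intensity trend and robust variances, 2 neighbours were called, Rex2 and Zfp933, as without array 3 labelled Mrp4-null, and the range with 1 array left out was 1 to 2. With zinc finger symbols only, 0 neighbours were called, since Rex2 has another symbol. Flanking genes called were 1 without a filter and 1 to 3 with 1 array left out. Masp2 was called under all 19 alternatives. Nppb was lost with the 75th percentile shift, cyclic loess and the stricter filter, and Fbxo44 under the LPE test, which left 2. Zinc finger genes elsewhere were 1 to 2, with 2 without array 1 labelled Mrp4-null. The KRAB list stayed at 0 under all 19 alternatives. The cause of these shifts was not tested. All 8 probes were well above background on all arrays. The normexp correction, with its offset of 50, made all 8 differences smaller in size, 4 of them by more than the spread between arrays.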
